A study of Saccharomyces cerevisiae with 12 samples.

Results

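Untreated cells of the *Saccharomyces cerevisiae* strain EG110, which lack *SOD2*, were compared with untreated cells of its parent strain EG103. The comparison used the 6 of the study's 12 arrays that were hybridized with RNA of cells grown without aspirin, 3 biological replicates per strain, and the arrays were chosen by the strain and treatment in their labels. EG103 is a MATα laboratory strain carrying the auxotrophic mutations *leu2-3 112*, *his3Δ1*, *trp1-289a* and *ura3-52*, and it is the wild type of the study with respect to *SOD2*. EG110 shares this background, but its *SOD2* gene was replaced by *TRP1*. All of these cells were grown aerobically for 48 h in rich medium with ethanol as the carbon source. Each genotype was represented by a single strain, so the loss of *SOD2*, the gain of *TRP1* and any other difference between these strains cannot be told apart. The other 6 arrays came from the same strains grown with 15 mM aspirin, and they were used to estimate the spread between replicates and, at the end, to set the strain difference beside that of treated cells.

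*SOD2* encodes manganese superoxide dismutase (MnSOD), the enzyme of the mitochondrial matrix that converts superoxide to hydrogen peroxide and oxygen. Superoxide is formed when electrons leak from the respiratory chain, which yeast growing on ethanol must use, since ethanol cannot be fermented. It damages proteins with exposed iron-sulfur clusters, such as aconitase. A copper-zinc enzyme encoded by *SOD1* removes superoxide in the cytosol and in the mitochondrial intermembrane space. Hydrogen peroxide is then removed by catalases, by peroxiredoxins that draw on thioredoxin, and by peroxidases that draw on glutathione, and both of these thiol systems depend on NADPH.

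The arrays were of the Affymetrix type GeneChip Yeast Genome 2.0, on which several short probes, together called a probe set, report on 1 transcript. Values are log2 expression, so a difference of 1 is a change of 2-fold. Each array was centred on the median of the 5716 probe sets paired with an *S. cerevisiae* gene, because the deposited medians were 11.15 to 11.16 in EG110 and 11.36 to 11.39 in EG103. A further 4999 probe sets of the array have no *S. cerevisiae* gene, and the 95th percentile of their values, 5.39, is called the background level. Differences are EG110 minus EG103, errors are moderated standard errors (SE) and adjusted P-values are those of limma, a linear model fitted to all tested probe sets, with Benjamini-Hochberg adjustment. Genes are named as called where the adjusted P was under 0.05 and the strains differed 1.5-fold or more. For 1 gene alone, the lowest two-sided P that an exact permutation of 3 arrays against 3 allows is 0.1.

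*SOD2* (YHR008C) had log2 values of 14.20, 14.28 and 14.10 in the EG103 arrays and 5.11, 4.73 and 4.61 in the EG110 arrays. The EG110 values lay below the background level, so *SOD2* mRNA was at least 449-fold lower (adjusted P = 4.49e-14). The labels therefore matched the measured *SOD2* level in all 6 arrays. *TRP1*, the marker that took the place of *SOD2*, was represented here by a reporter control probe set, which was not tested. Its level was 12.55 ± 0.13 (SD, n = 3) in EG110 and 12.02 ± 0.04 (SD, n = 3) in EG103. Of the genes beside *SOD2* in the RefSeq gene order (assembly R64), *STP2* (-0.71), *YHR007C-A* (-1.27), *RPL27A* (0.81) and *DIA4* (1.08) were called, whereas *ERG11* (0.46) and *TDA3* (-0.41, or -0.64 and called without centring) were not. Over all tested probe sets, 21.3% were called. *RPL27A* is a gene of the cytosolic ribosomal proteins, which had a median difference of 0.78 as a list. Among the loci mutated in both strains, *URA3* was 2.82-fold higher in EG110 (SE 0.183 on the log2 scale, adjusted P = 1.78e-05), *HIS3* was lower by 0.72 on the log2 scale (adjusted P = 2.95e-06) and *LEU2* differed by -0.13 (adjusted P = 0.0924). Control probe sets at the 3′ and 5′ ends of *URA3* differed by a mean of 1.01 in EG110 and 0.23 in EG103, and the part of this in the *URA3* value was not tested.

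Both strains are labelled as the α mating type, and genes specific to α cells were well above the background level in all 6 arrays. Levels of different probe sets cannot be set against each other, and the **a**-pheromone genes *MFA1* and *MFA2* were above the background level too, so the mating type itself was not checked. The α-pheromone genes *MF(ALPHA)1* (1.19), *MF(ALPHA)2* (1.38) and *STE3*, the **a**-factor receptor gene (1.36), were higher in EG110, and for all of them the arrays of the strains did not overlap. *SAG1*, the α-agglutinin gene, differed by 0.57 and was just under the fold threshold, which it passed when any of 4 single arrays was left out (0.60 to 0.62). Of the 7 **a**-specific genes, 0 were called, and their differences lay between -0.44 and 0.58. *STE2* differed by -0.15 (adjusted P = 0.0791) and *AGA2* by 0.58, and *AGA2* passed the threshold without EG110 array 3 (0.69) or EG103 array 3 (0.62). Of 5 genes specific to haploid cells, 0 were called, with differences from -0.27 to 0.50. Of 4 meiotic genes of **a**/α diploid cells, 3 were higher (2 without centring), with differences from 0.44 to 1.26 and a median of 0.81. Over all tested probe sets, 21.3% were called, 13.2% as higher and 8.14% as lower. The meiotic gene with the largest difference had a mean of 5.81 in EG103 and 7.07 in EG110. Between levels 6 and 7, 45.1% of all probe sets were called, and the part of expression level was not tested.

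Between the strains, 1219 of 5716 tested probe sets (21.3%) were called. They comprised 754 that were higher in EG110 (13.2%) and 465 that were lower (8.14%), and in 1211 of the 1219 the arrays of the strains did not overlap. The shares of 13.2% and 8.14% are to be set beside the counts of all gene lists below. Non-overlap alone was common, at 68.6% of all tested probe sets, since the spread between replicates was small (median SD 0.087 in EG110 and 0.073 in EG103). Differences of at least 2-fold were called for 253 probe sets that were higher and 134 that were lower, and differences of at least 4-fold for 39 and 14. Among the 4999 that have no *S. cerevisiae* gene, 322 (6.44%) passed the same thresholds, 3.96% as higher and 2.48% as lower. The split into higher and lower depended on the centring. Without it, 426 were higher and 993 lower, with a median of all tested genes of -0.20, and after quantile normalization the numbers were 618 and 553.

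The called genes were spread over all 16 chromosomes. The median difference of a chromosome lay between -0.08 and 0.11, and between 16.8% and 25.6% of its probe sets were called. Among the 10 outermost annotated genes at each chromosome end, 76 of 188 probe sets were called (40.4%), compared with 1087 of 5378 elsewhere (20.2%). Of the 76, 45 were higher and 31 lower. The median difference also varied with the level of expression. It was 0.33 for probe sets between 7 and 8, between -0.04 and 0.01 for those between 10 and 13, 0.13 between 13 and 14 and 0.20 above 14. So did the share called, at 48.6% of probe sets between 7 and 8 and 14.7% between 11 and 12. The part of expression level in the share at the chromosome ends was not tested. Of 8 genes with control probe sets at the 3′ and 5′ ends, *ACT1*, *RIP1*, *SRB4* and *URA3* had a larger mean 3′-5′ difference in EG110 (for *ACT1*, 0.45 against 0.33), and *TDH1*, *SPT15*, *WBP1* and *EAF5* a smaller one (for *EAF5*, 1.02 against 1.19).

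The largest rises included genes of desiccation and of the cell surface. *YDL218W*, which encodes a protein of unknown function, was at 13.71, 13.60 and 13.85 in EG110 and at 8.01, 8.26 and 8.35 in EG103, a rise of 45.5-fold (5.51, SE 0.121, adjusted P = 3.93e-11). *ANS1* (YHR126C), a gene for a putative cell wall anchored protein, was at 12.99, 12.73 and 12.57 against 7.42, 7.10 and 7.72, which is 40.9-fold higher. In both genes the EG103 arrays were far above the background level but among the lower values of the array, and the EG110 arrays were well above its median. *GRE1* was at 14.96, 14.98 and 14.94 in EG110 and 11.08, 11.25 and 11.57 in EG103. *SIP18* was at 14.96, 14.99 and 15.01 against 11.24, 11.62 and 11.41. Both encode hydrophilins, small hydrophilic proteins made on water loss, and they rose 12.6-fold and 11.8-fold to a place among the highest values of the array.

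*PMA2*, which encodes the minor isoform of the plasma membrane proton pump, was at 13.18, 13.07 and 13.17 in EG110 and 9.68, 9.47 and 9.99 in EG103, a rise of 10.8-fold. The major isoform *PMA1* differed by -0.31 (adjusted P = 0.0534). *PHM8*, a phosphatase gene of the phosphate response, rose 10.6-fold, and its EG110 arrays (12.15, 12.26 and 11.72) lay above all those of EG103 (8.76, 8.39 and 8.75). *YMR118C*, whose product resembles a subunit of succinate dehydrogenase, rose by 3.17, and the aldehyde dehydrogenase gene *ALD3* rose 6.72-fold. The small reading frames *YLR342W-A*, *YMR175W-A* and *YMR230W-A* rose by 3.15, 2.81 and 2.74, and *YMR230W-A* was uneven in EG110 (10.18, 10.28 and 9.05). The remaining probe set among the 12 largest rises lists several *PAU* genes and was not assigned to any of them.

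Apart from *SOD2*, the largest falls were mostly in genes of unknown function. Both probe sets of *YLR466C-B* fell, from between 9.70 and 10.12 in EG103 to between 4.18 and 5.81 in EG110, and for the one that ended below the background level the fall was at least 21.1-fold. *YOL014W* was at 6.36, 6.43 and 6.32 in EG110 and at 10.57, 10.16 and 10.96 in EG103 (18.3-fold lower). *HPF1*, the gene of a cell wall mannoprotein, was at 8.24, 7.59 and 7.93 against 11.01, 11.25 and 10.87 (8.70-fold lower). A second *HPF1* probe set, which is shared with *YIL169C*, fell by 3.05 on the log2 scale. *YBR056W-A* fell by 3.09, *YLR053C* by 2.94, *YNL034W* by 2.22 and *YDR210W* by 2.10, all with arrays that did not overlap. *YHR022C-A* was below the background level in EG110 and at least 2.77-fold lower. *DSE1*, which acts in the separation of daughter cells, fell by 2.66 and is described with its group.

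Of 11 genes that remove superoxide and peroxide or regulate this defence, 3 were higher and 1 was lower in cells without MnSOD, with a median difference of 0.10, beside 0.03 for all tested probe sets. The median was -0.12 without centring, with 2 higher and 3 lower. *CTT1*, the cytosolic catalase gene, was at 13.65, 13.48 and 13.91 in EG110 and 12.12, 12.25 and 12.01 in EG103, a rise of 2.94-fold (1.55, SE 0.180, adjusted P = 1.15e-05). *CTA1*, the catalase gene of peroxisomes and mitochondria, rose 1.91-fold, from between 10.23 and 10.48 to between 11.19 and 11.39. *MTM1*, a mitochondrial carrier gene needed in yeast for the insertion of manganese into Sod2, rose by 0.64, and it was just under the fold threshold without replicate 3 of all groups (0.58) and without centring (0.42). *CCP1*, which encodes the cytochrome c peroxidase of the intermembrane space, fell by 0.66 (adjusted P = 1.12e-05).

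*SOD1*, the remaining superoxide dismutase gene, was at 14.77, 14.80 and 14.78 in EG110 and 14.43, 14.45 and 14.39 in EG103. The arrays did not overlap, but the difference of 0.36 (SE 0.050, adjusted P = 4.54e-05) was 1.29-fold and below the fold threshold. The copper chaperone gene of Sod1, *CCS1*, differed by -0.25. The transcription factor genes of the oxidant and general stress responses had differences of 0.10 for *YAP1*, -0.48 for *SKN7*, -0.14 for *MSN2* and 0.18 for *MSN4*, and *YBP1*, which encodes a partner of Yap1, differed by -0.44. None of these 6 genes was called, although for *CCS1*, *SKN7*, *YBP1* and *MSN4* limma gave an adjusted P below 0.05. Without centring, *SKN7* (-0.71) and *YBP1* (-0.66) were called lower, and the signs of *YAP1* and *MSN4* turned.

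**Figure D1:**
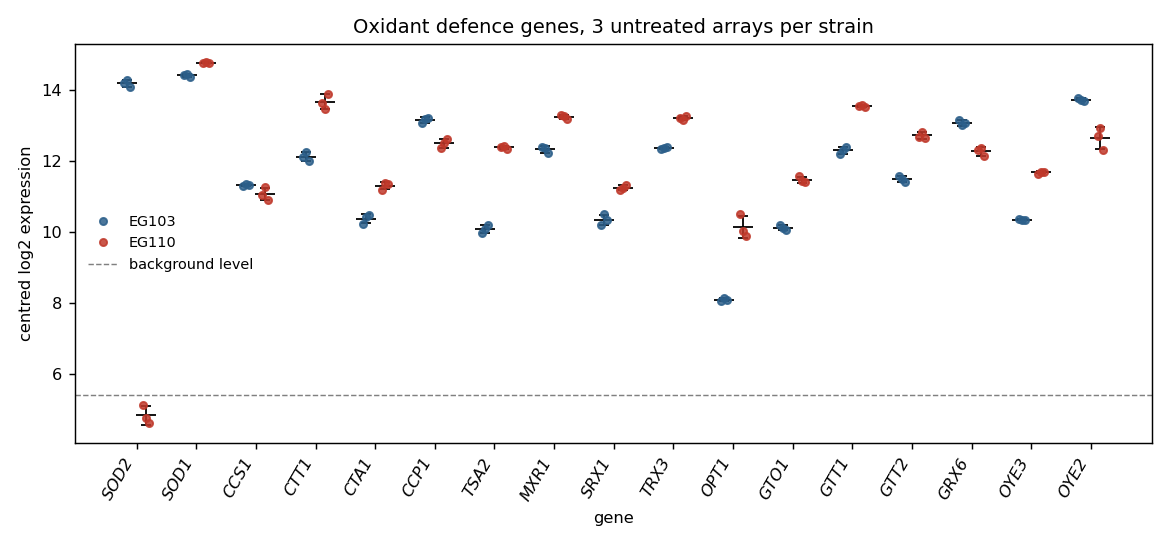
Centred log2 expression (vertical axis) of *SOD2* and 16 oxidant defence genes (horizontal axis) in the untreated arrays; each dot is 1 array, horizontal bars are means and error bars are SD (n = 3), and the dashed line is the background level of 5.39. *SOD2* drops below the line in EG110, *TSA2* and *OPT1* show the widest gaps upwards, and *CCP1*, *GRX6* and *OYE2* are lower in EG110.

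The thiol-based systems had more members that rose. Of 13 genes of the thioredoxin and peroxiredoxin group, 6 were higher and 0 lower (the lowest difference was -0.29, within 1.5-fold), with a median difference of 0.47, against 13.2% higher among all tested probe sets. Without centring, 4 were higher and 0 lower, with a median of 0.24. *TSA2*, a cytosolic peroxiredoxin gene, was at 12.40, 12.42 and 12.35 in EG110 and 9.97, 10.07 and 10.20 in EG103, a rise of 4.96-fold (2.31, SE 0.076, adjusted P = 8.25e-10). *MXR1*, which encodes the methionine sulfoxide reductase of the cytosol, rose 1.89-fold. *SRX1*, the sulfiredoxin gene that restores oxidized peroxiredoxin, rose 1.88-fold and *TRX3*, the mitochondrial thioredoxin gene, 1.80-fold. The arrays of the strains did not overlap for any of these genes.

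Of 26 genes of glutathione synthesis and use, 9 were higher and 3 lower (median 0.14), or 7 and 5 without centring (median -0.08). With centring, the shares of all tested probe sets were 13.2% higher and 8.14% lower. *OPT1*, an importer of glutathione and peptides, was at 10.50, 10.03 and 9.90 in EG110 and 8.06, 8.13 and 8.08 in EG103, a rise of 4.14-fold. The glutathione transferase genes *GTO1* (2.57-fold), *GTT1* (2.38-fold) and *GTT2* (2.36-fold) also rose. Among those that fell, *GRX6*, a glutaredoxin gene of the secretory pathway, had the largest difference (-0.81, adjusted P = 1.83e-06). Among the NADPH-dependent aryl-alcohol and old yellow enzyme reductases, 5 of 8 probe sets were higher and 1 lower. *AAD10* (1.14), *AAD14* (0.83) and both probe sets for *AAD3* alone (1.09 and 1.45) were higher, but the *AAD* genes are close copies of each other and may share signal. The 2 probe sets of the list that were not called were also of *AAD* genes (-0.04 and -0.23). The old yellow enzyme genes moved apart. *OYE3* was at 11.65, 11.70 and 11.70 in EG110 and 10.37, 10.33 and 10.35 in EG103 (2.52-fold higher), whereas *OYE2* was at 12.71, 12.94 and 12.32 against 13.79, 13.72 and 13.70 (2.12-fold lower).

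A similar exchange between gene copies was seen in the pentose phosphate pathway, a main source of NADPH, in which 3 of 10 genes were higher and 1 lower (2 and 3 without centring). *GND2*, the minor 6-phosphogluconate dehydrogenase gene, was at 13.78, 13.78 and 13.82 in EG110 and 11.81, 11.83 and 11.91 in EG103, a rise of 3.85-fold (1.94, SE 0.072). *GND1*, the major one, was at 10.67, 10.57 and 10.96 against 12.32, 12.45 and 12.33, a fall of 3.11-fold (adjusted P = 3.2e-08). *SOL4*, for the lactonase that acts just before them, rose 5.67-fold. The probe set of the minor transketolase gene *TKL2*, which also lists the overlapping reading frame YBR116C, rose 6.30-fold, a gene outside the naming rule and chosen after its values were seen. In glycolysis and fermentation, 4 of 28 genes were higher and 2 lower. *PDC6*, a minor pyruvate decarboxylase gene, showed the largest of these rises, at 13.85, 13.62 and 13.63 against 11.02, 10.90 and 11.06 (6.53-fold). Of 15 hexose transporter probe sets, 8 were higher and 1 lower (median 0.71), led by *HXT14* (4.95-fold) and *HXT10* (3.97-fold). *HXT14* and *HXT10* had means of 6.56 and 7.60 in EG103, and levels in the list reached 14.11 for *HXT5* in EG110 (a difference of 0.73, or 0.51 and not called without centring). With the lowest 25% of probe sets left out, 2 of the list were called.

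Of 9 genes that turn ethanol into acetyl-CoA, 3 were higher and 0 lower in EG110, with differences from 0.05 to 2.75. *ALD3* had a mean of 12.86 in EG110 and was at 10.33, 10.05 and 9.97 in EG103, with no overlap. *ALD2*, its neighbouring copy, rose 3.65-fold. The other aldehyde dehydrogenase genes of the list were not called, with differences from 0.18 to 0.45. *ADH2*, which encodes the alcohol dehydrogenase that oxidizes ethanol, was at 14.45, 14.58 and 14.28 against 13.86, 13.73 and 13.81 (1.56-fold higher), and it dropped below the fold threshold without EG110 array 2 (0.57) and after quantile normalization or without centring (0.42 in both). The acetyl-CoA synthetase genes *ACS1* (0.36) and *ACS2* (0.31) did not reach the fold threshold.

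The carnitine shuttle, which carries acetyl units into mitochondria, was lower in EG110, with 0 of 5 genes higher (the highest difference was 0.21) and 3 lower (median -0.69), against 8.14% lower among all tested probe sets. The gene with 0.21 was at the background level, with means of 5.40 in EG110 and 5.20 in EG103. *YAT2*, a carnitine acetyltransferase gene, was at 12.42, 12.91 and 12.55 in EG110 and 14.08, 14.08 and 14.05 in EG103, a fall of 2.73-fold (adjusted P = 1.11e-06). *CAT2*, the main acetyltransferase gene of mitochondria and peroxisomes, fell by 0.72 and *AGP2*, which encodes a plasma membrane carnitine transporter, by 0.69. *CRC1*, the carrier gene of the mitochondrial inner membrane, differed by -0.56, and it passed the fold threshold without EG110 array 2 (-0.64) and after quantile normalization (-0.76). *CIT2*, the citrate synthase gene of the glyoxylate cycle, and *SFC1*, the succinate-fumarate carrier gene, differed by 0.10 and 0.14, and their signs turned when arrays were not centred (-0.12 and -0.087). Of the genes for acetate and lactate uptake, *ADY2*, the acetate transporter gene, was lower by 0.65 on the log2 scale (0.55 without EG110 array 3, below the threshold), whereas *ATO3*, of the same family, was 2.33-fold higher.

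**Figure D2:**
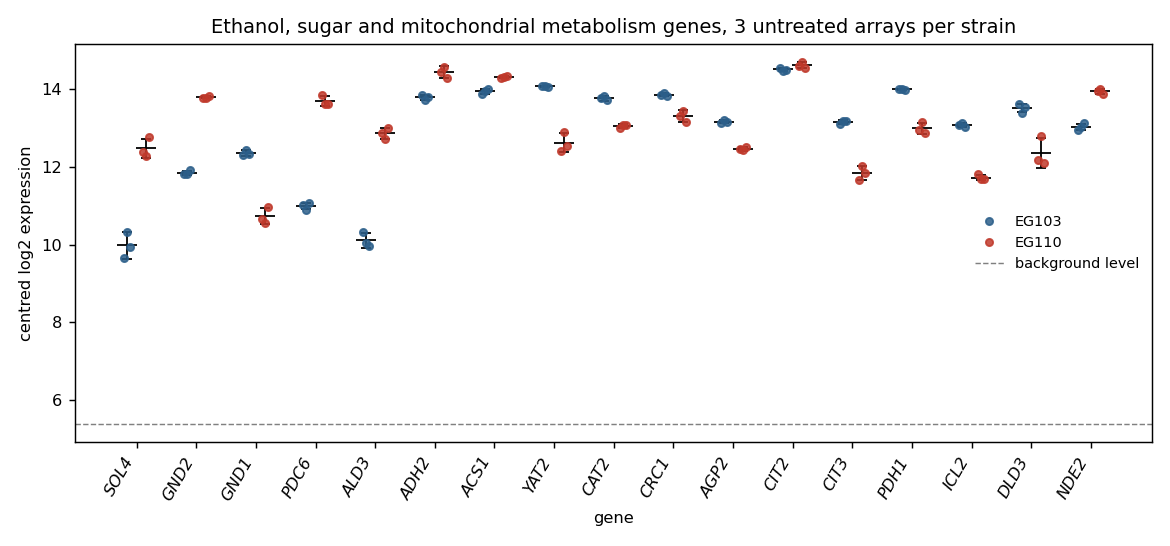
Centred log2 expression (vertical axis) of 17 genes of sugar, ethanol and mitochondrial metabolism (horizontal axis) in the untreated arrays; each dot is 1 array, horizontal bars are means and error bars are SD (n = 3), and the dashed line is the background level of 5.39. *GND2* and *GND1* lie on opposite sides in the strains, and *YAT2*, *CIT3*, *PDH1* and *ICL2* are lower in EG110 with no overlap.

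The lists of nuclear genes for the respiratory chain, mitochondrial ribosome and tricarboxylic acid cycle had few calls beside the 21.3% of all tested probe sets. Of 41 genes of the respiratory chain and ATP synthase, 1 was called. This was *NDE2*, an external NADH dehydrogenase gene, which was 1.88-fold higher. Of 72 mitochondrial ribosomal protein genes 1 was called, and the medians of both lists were 0.06 and 0.05. Of 25 genes of the tricarboxylic acid cycle and pyruvate entry, 0 were higher and 2 were lower (median 0.01). *CIT3*, a mitochondrial citrate and methylcitrate synthase gene, was at 11.66, 12.02 and 11.84 in EG110 and 13.10, 13.17 and 13.18 in EG103, a fall of 2.48-fold (adjusted P = 9.82e-08). *PDH1*, on the retrograde list and encoding the dehydratase of the same methylcitrate cycle, which degrades propionate, fell 2.02-fold. *ICL2*, the gene of the lyase that completes this cycle, was on no list and was looked up after these values were seen. It was at 11.81, 11.68 and 11.69 against 13.07, 13.13 and 13.02 (2.55-fold lower). These 3 genes lie near each other on chromosome XVI, by their systematic names YPR001W, YPR002W and YPR006C. Of the 12 genes of the retrograde list, which respond to mitochondrial state, 3 were lower and 0 higher. Among all tested probe sets, 8.14% were lower. *DLD3*, a cytosolic lactate dehydrogenase gene, was the lowest (-1.15), with an uneven spread in EG110 (12.17, 12.80 and 12.11). Without centring, the lower members numbered 2 in the respiratory list, 3 among the mitochondrial ribosomal proteins, 5 in the tricarboxylic acid list and 6 in the retrograde list. No probe set was matched to the genes of the mitochondrial genome, which were not analysed here.

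Genes of metal supply were mixed. Of 24 genes for assembly of iron-sulfur clusters, 2 were higher and 0 lower (median -0.07, the lowest at -0.44). These were *IBA57*, a late-acting assembly factor gene, with 11.09, 11.31 and 11.23 in EG110 against 9.76, 9.89 and 9.79 (2.63-fold), and *SSQ1*, the chaperone gene of this pathway (2.23-fold). Of 26 genes of the Aft1 iron regulon, 3 were higher and 3 lower (median -0.13), beside 13.2% and 8.14% of all tested probe sets. The ferric reductase gene *FRE2* (1.15) and the siderophore transporter genes *ARN2* (1.03) and *ARN1* (0.91) were higher, and the biotin transporter gene *VHT1* was lower (-1.17). *HEM13*, a heme synthesis gene whose enzyme needs oxygen, was lower by 0.95 on the log2 scale. Without centring, 4 genes of iron-sulfur cluster assembly and 7 of the Aft1 regulon were lower, and the numbers that were higher stayed at 2 and 3.

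Of 17 genes of copper, zinc and manganese transport, 7 were higher and 2 lower (median 0.30), a count that fell to 2 and 2 without centring. With centring, 13.2% of all tested probe sets were higher and 8.14% lower. The manganese transporters were opposite in sign. *SMF1*, for uptake at the cell surface, was at 12.67, 12.49 and 12.83 in EG110 and 11.25, 11.42 and 11.04 in EG103 (2.69-fold higher). *SMF2*, for the vesicle transporter that supplies manganese to Sod2 in yeast, was at 11.10, 11.15 and 11.16 against 12.17, 12.16 and 12.12, a fall of 2.01-fold (SE 0.053, adjusted P = 2.26e-08). *ZRT1*, the high-affinity zinc transporter gene, fell by 0.85.

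The broadest shift was in the genes of cytosolic ribosomal proteins. Of 126 probe sets for 120 genes, 95 were higher and 0 lower, with a median of 0.78, beside 13.2% higher and a median of 0.03 over all tested probe sets. The arrays of the strains did not overlap for any of the 126, against 68.6% without overlap in general. The differences ranged from -0.35 for *RPL15B* to 2.41 for *RPS9A*, which was at 11.71, 11.74 and 11.01 in EG110 and 9.17, 8.97 and 9.09 in EG103. *RPL22B* (1.90) and *RPS14B* (1.84) followed. All 3 encode a lesser expressed copy of a pair, and near-identical copies may share signal on the array. The count was 61 higher without centring and 70 after quantile normalization, with 0 lower in either case, and 93 to 99 when arrays were left out. Over the same arrays, 16 of 17 control probe sets for ribosomal RNA were lower in EG110, with a median of -0.77 and a range from -2.26 to 0.06, and in 13 of them all EG110 arrays lay below all EG103 arrays. These controls were not tested, and the part of RNA preparation and labelling in either value was not tested.

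Among 74 genes of ribosome biogenesis, 17 were higher and 1 lower (median 0.25). The 18 calls became 29 without EG110 array 3, 10 without centring and 10 after adjustment by the methods' t-test, the ordinary unpaired test of the paper's general statistics. *NSR1*, the nucleolin gene, showed the same unevenness, with 13.03, 13.41 and 12.25 in EG110 and 11.50, 10.94 and 11.53 in EG103, a difference of 1.57 (SE 0.246, adjusted P = 0.000129). Of 37 proteasome genes 0 were called by limma and 0 by the methods' t-test, with differences from -0.56 to 0.45 and a median of -0.14. Without centring 4 of them were lower.

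**Figure D3:**
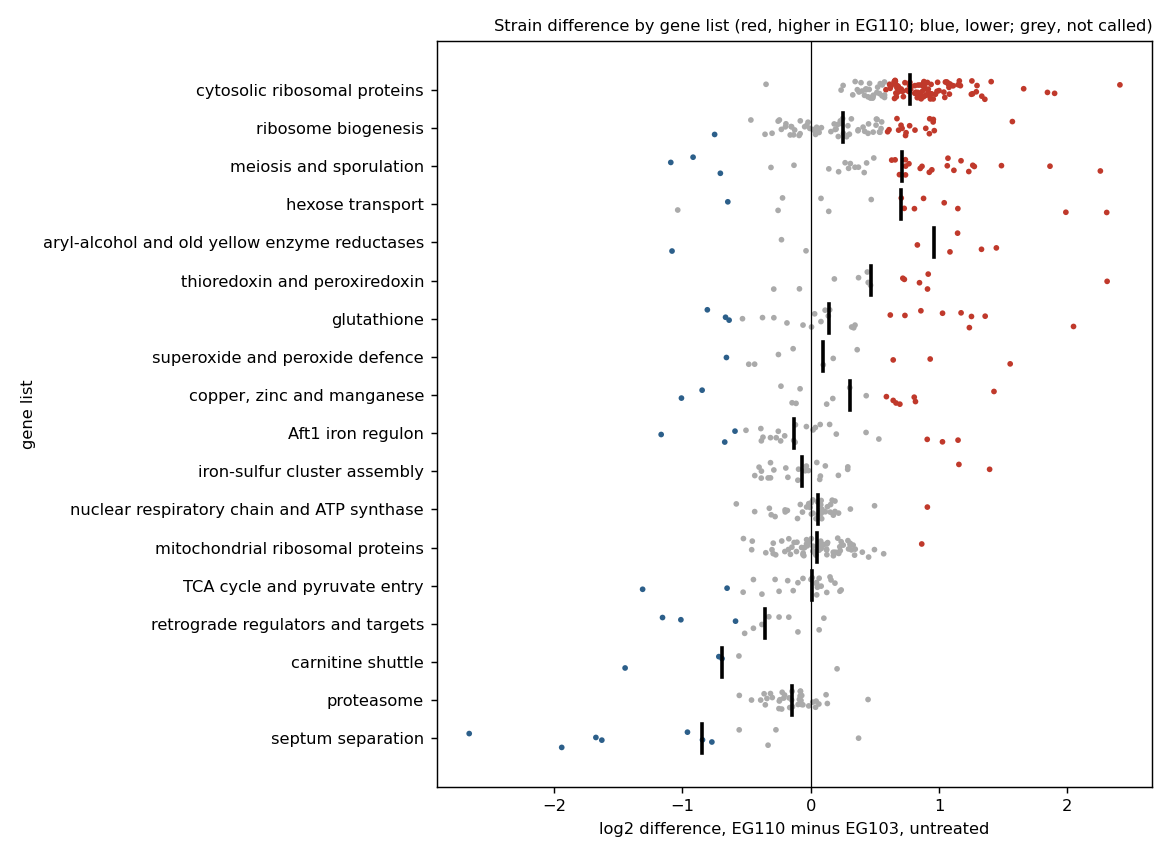
Log2 difference between untreated EG110 and EG103 cells (horizontal axis) of each probe set in 18 gene lists (vertical axis); each dot is 1 probe set, red if called higher, blue if called lower and grey if not called, and black bars are list medians. *SOD2* belongs to none of these lists. The ribosomal protein genes lie almost entirely to the right (median 0.78), the septum genes to the left (median -0.84), and the respiratory chain and mitochondrial ribosome genes around 0.

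Of 36 genes of meiosis and spore formation, 21 were higher in EG110, 3 were lower and 12 were not called (median 0.71), against 13.2% higher and 8.14% lower among all tested probe sets. Without centring 14 were higher and 3 lower. *CDA2*, a chitin deacetylase gene of the spore wall, was no lower than 10.84 in EG110 and at 8.66, 8.61 and 9.10 in EG103, a rise of 4.78-fold. *SPS100*, another spore wall gene, was at 14.38, 14.34 and 14.28 against 12.29, 12.45 and 12.67 (3.64-fold). The kinase gene *SMK1* (2.80-fold) and the meiotic cohesin gene *REC8* (2.42-fold) also rose from low levels, with EG103 values between 6.99 and 7.15 and between 8.42 and 8.58. Probe sets at such levels had a median difference of 0.15 to 0.33 over all genes. Between 7 and 8, 48.6% of all probe sets were called in either direction, and between 8 and 9, 45.4%, against 21.3% at all levels. The part of expression level in the count of this list was not tested.

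Of 11 genes by which a daughter cell is cut from its mother, 7 were lower in EG110, 0 were higher and 4 were not called, against 8.14% lower among all tested probe sets. Their median difference was -0.84 and the highest was 0.37. *DSE1* was at 7.01, 7.78 and 7.15 in EG110 and 10.09, 9.80 and 10.04 in EG103, a fall of 6.33-fold (SE 0.162, adjusted P = 7.04e-08). *DSE2*, a glucanase gene, fell 3.84-fold, the chitinase gene *CTS1* 3.19-fold and *SUN4*, which is related to glucanases, 3.09-fold. *EGT2*, another gene of this group, was lower by 0.96 on the log2 scale. In *DSE1*, *DSE2*, *CTS1* and *SUN4*, EG110 array 2 was the highest of the strain, yet it remained below every EG103 array. Of 17 cyclin and cell cycle genes 1 was higher and 4 lower, and of 48 DNA replication genes 2 were higher and 3 lower (10 lower without centring).

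Of 8 genes of eisosomes, which are domains of the plasma membrane, 1 was higher, *FMP45* (0.78, or 0.56 and not called without centring), and 2 were lower. Beside this count and those that follow, 13.2% of all tested probe sets were higher and 8.14% lower. *PUN1* (12.43, 12.38 and 12.26 against 14.25, 14.27 and 14.24) and *SUR7* (10.50, 10.51 and 10.59 against 12.18, 12.10 and 12.15) fell 3.72-fold and 3.06-fold, respectively. *TIR1*, a mannoprotein gene of cells short of oxygen or in the cold, rose 6.04-fold, and of 18 probe sets of hypoxic genes 5 were higher and 4 lower (4 and 7 without centring). *AQY1*, an aquaporin gene, was at 11.73, 11.88 and 11.66 in EG110 and 9.14, 8.89 and 9.55 in EG103 (5.93-fold higher). Of 23 genes of weak acid and drug export, 4 were higher and 5 lower. *PDR12*, the exporter gene for weak organic acids, fell 3.88-fold, from between 11.54 and 11.88 to between 9.65 and 9.96, whereas *AQR1* rose by 1.61, with an uneven EG110 group (10.17, 10.41 and 9.20). In the phosphate regulon, 4 of 22 genes were higher and 3 lower. *PHO84*, the high-affinity phosphate transporter gene, varied most between arrays, at 12.55, 13.31 and 11.61 against 11.10, 10.31 and 11.24 (1.60, SE 0.347, adjusted P = 0.00143), and it was not called by the methods' t-test after adjustment. *PHO3*, an acid phosphatase gene, fell 3.74-fold.

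In lipid breakdown, 8 of 44 genes of peroxisomes and fatty acid oxidation were higher and 2 lower, beside 13.2% and 8.14% of all tested probe sets, and without centring 3 were higher and 3 lower. *POT1*, the thiolase gene of β-oxidation, rose 4.88-fold, from 9.69, 9.81 and 9.92 to 12.04, 12.02 and 12.21, and *SPS19*, for an auxiliary reductase of unsaturated fatty acids, rose 1.97-fold. Of 27 heat shock genes, 3 were higher and 3 lower, and the highest was *HSP31* (1.13), whose product detoxifies glyoxals. Of 20 trehalose and glycogen genes, 2 were higher and 1 lower (1 and 3 without centring), and of 36 autophagy genes 5 were higher and 2 lower (2 and 2 without centring), beside the same shares of all tested probe sets. Of 6 stationary phase genes, 1 was higher, *SPG1* (2.16), and 1 was lower, *SNO1* (-1.47), a gene of vitamin B6 synthesis. The lists for amino acids, purines and nitrogen held 9 to 33 genes. Between 1 and 9 of each were called, with medians between -0.10 and 0.15. The most calls were for allantoin, proline and ammonium, with 5 of 16 genes higher and 4 lower (differences from -1.61 to 1.89). Lysine (1 of 9) and branched-chain amino acids (1 of 10) had the fewest, beside 21.3% of all tested probe sets. Without centring, 8 of the 33 sulfur amino acid genes were lower instead of 2.

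The same strain contrast was also measured in cells grown with aspirin. Its differences came from the other 6 arrays, but both contrasts share the estimate of the spread, which was made from all 12. There, 1267 probe sets were called (22.2%), 685 as higher (12%) and 582 as lower (10.2%), and the arrays of the strains did not overlap in 76.8%. Of the 1219 called without aspirin, 1124 (92.2%) had the same sign with aspirin, compared with 78.2% of all tested probe sets, and 714 (58.6%) were also called in the same direction, whereas 22 were called in the opposite one. The difference between the contrasts was tested as an interaction, which was called for 671 of all tested probe sets (11.7%, of which 4.78% upwards and 6.96% downwards) and for 293 of the 1219. The rise of the ribosomal protein genes was present with aspirin too, with 90 higher and 0 lower and a median of 0.76. *SMF1* (1.53), *SMF2* (-1.16), *CTT1* (1.40), *ALD3* (2.76) and *ANS1* (5.51) kept their direction and their call.

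Other strain differences depended on the condition by the test of the interaction. The septum genes, of which 7 of 11 were lower without aspirin, were 1 lower and 3 higher with it, and *DSE1* was then at -0.04 (interaction 2.63, adjusted P = 8.5e-06). *PDR12* went from -1.96 to 0.09, *AQY1* from 2.57 to -0.35 and *PMA2* from 3.43 to 0.72, still called. *ADY2* went from -0.65 to -4.75, the largest interaction of a gene called in the untreated contrast (-4.11, adjusted P = 3.34e-07), and *HXT4* went from 0.71 to 4.43. In the untreated contrast *HXT4* fell short of the fold threshold without EG110 array 1 (0.56), after quantile normalization (0.56) and without centring (0.48). *SET6* was at least 1.97-fold higher in untreated EG110, where EG103 was below the background level, and its EG110 values were 6.54, 6.36 and 6.19 without aspirin and between 8.93 and 9.02 with it. EG103 was below the background level in both conditions, so the strain differences of *SET6* are known as lower bounds.

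**Figure D4:**
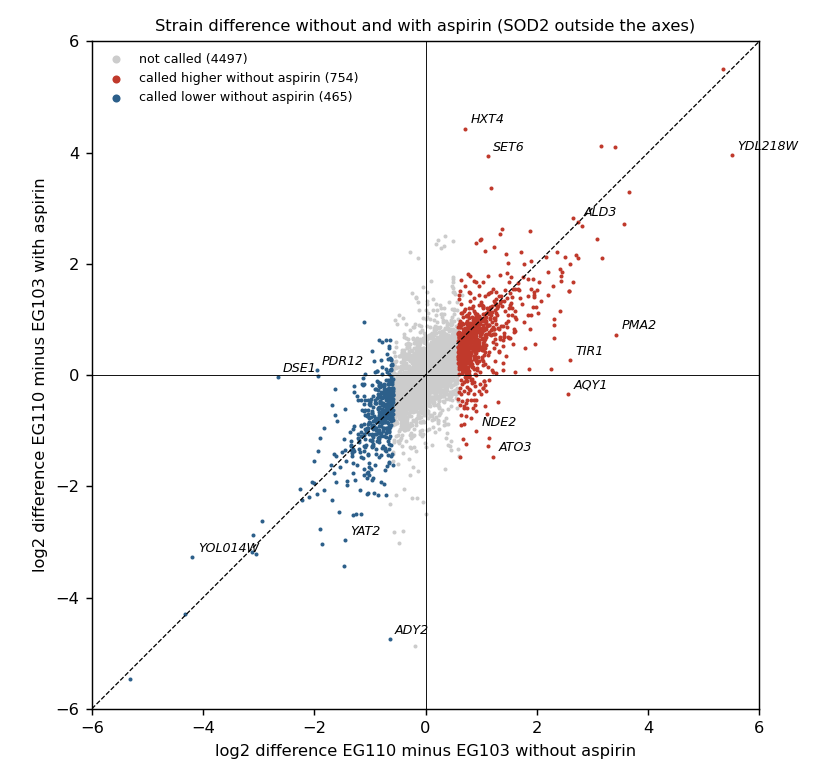
Log2 difference EG110 minus EG103 of each tested probe set without aspirin (horizontal axis) and with aspirin (vertical axis); each dot is 1 probe set, coloured by its call without aspirin (754 higher, 465 lower), the dashed line marks equal differences and *SOD2* lies outside the axes. Most called probe sets lie in the quadrants of equal sign, and *DSE1* (-0.04) and *PDR12* (0.09) lie close to 0 on the vertical axis, while *ADY2* (-4.75) and *HXT4* (4.43) lie far from it.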

How the data were processed

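The authors hybridized biotin-labelled RNA to GeneChip Yeast Genome 2.0 arrays and deposited log2 expression values for 12 arrays, made by robust multi-array averaging in AltAnalyze. Whether both strains were normalized together is not given in the sources used here. The deposited table also holds the authors' log2 and linear fold changes (ratios) and P-values for aspirin within each strain, which were not used. The number of unused per-array columns was 0. Strain, treatment and replicate were taken from the sample labels.

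Each array was centred on the median of the 5716 probe sets paired with *S. cerevisiae* genes, and the common median was added back. Control probe sets (213) were left out. The 12 arrays were fitted as 4 groups of 3 with limma 3.58.1 in R 4.3.3 (8 residual degrees of freedom), with Benjamini-Hochberg adjustment over all tested probe sets. The number of arrays limits the precision. No filter on low values was applied, and 46 tested probe sets lay below the background level in both untreated groups. A fold against a group below the background level was computed against that level and is given as "at least". The probe sets included 140 that list several genes, which were kept out of the gene lists.

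The gene lists (59, of which 1 had no probe set, with 1211 of 1289 members matched by name or RefSeq synonym) and the members were chosen with earlier results of these data known. RefSeq (assembly R64) supplied names, chromosomes and gene order only, and 5551 of 5560 single-gene identifiers matched. Genes named in the text were *SOD2*, the marker loci, the neighbours of *SOD2* and the 12 largest called rises and falls without overlap and above background. Also named were up to 4 called genes per direction in each list, and the members of the superoxide and peroxide list, called or not. Others were part of the mating type markers, called or not, the genes of acetyl-CoA supply studied by the authors, and the 3 largest interactions per direction. *TKL2*, *ICL2*, *PMA1*, *AAD14*, *EGT2*, *HXT5* and *RPL15B* were added after their values had been seen. The fit was tested on simulated data. Correlations of deviations between same-numbered arrays of the strains were 0.21, -0.29 and -0.14. Between differently numbered arrays they ranged from -0.24 to 0.34. Deviations within a group of 3 depend on each other, so these values cannot decide whether the strains were paired. Alternatives covered centring, quantile normalization, filters, thresholds, the methods' t-test (unpaired), a replicate block and leaving out arrays. This t-test is that of the paper's general statistics. For the arrays, the paper names moderated t-statistics, which limma also gives. Plotting used matplotlib 3.10.9 under Python 3.11.15.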

Additional observations from a re-analysis of the deposited data

Results flagged for a closer look

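The strain difference of the following named genes changed with aspirin by the test of the interaction in limma (adjusted P below 0.05 and a change of at least 1.5-fold). Values are the log2 difference between EG110 and EG103 with aspirin minus that without. The count of interactions was refitted with single arrays left out, as given below, but the interaction values of these genes were not checked in this way.

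For these genes of acetyl-CoA supply and mitochondrial metabolism, the strain difference moved downwards with aspirin, by -4.11 for *ADY2*, -2.69 for *ATO3*, -2.26 for *CRC1*, -1.92 for *NDE2*, -1.53 for *ADH2*, -1.52 for *YAT2*, -1.49 for *ACS1* and -1.44 for *CAT2*. It also moved downwards by -1.34 for *DLD3*, -1.21 for *CIT3*, -1.05 for *ALD2*, -0.94 for *AGP2*, -0.83 for *CIT2*, -0.79 for *PDH1*, -0.69 for *POT1*, -0.63 for *SFC1* and -0.62 for *ACS2*. Whole lists did not all move this way. The median went from -0.69 to -2.15 in the carnitine shuttle, but from 0.06 to 0.18 in the respiratory list and from 0.01 to 0.07 in the tricarboxylic acid list.

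Of the genes that were higher in untreated EG110 cells, the difference changed by -2.91 for *AQY1*, -2.70 for *PMA2*, -2.33 for *TIR1*, -2.15 for *CDA2*, -1.75 for *SPS100* and -1.63 for *HXT14*. The same held for *YDL218W* (-1.56), *TSA2* (-1.30), *RPS9A* (-1.25), *YMR118C* (-1.07), *GTT1* (-1.003), *SIP18* (-0.85), *URA3* (-0.84), *HXT5* (-0.81) and *HXT10* (-0.77). *SNO1* (-1.96) and *YHR007C-A* (-0.60) were lower in EG110 and became more so.

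Of the genes that were lower in untreated EG110 cells, the difference changed by 2.63 for *DSE1*, 2.04 for *PDR12*, 1.92 for *DSE2*, 1.39 for *EGT2*, 1.38 for *SUN4*, 1.14 for *CTS1*, 1.10 for *OYE2*, 0.92 for *YOL014W*, 0.91 for *GND1* and 0.77 for *PUN1*. The difference grew upwards by 3.72 for *HXT4*, 2.81 for *SET6*, 1.47 for *ARN1*, 1.20 for *OYE3*, 0.98 for *YLR342W-A*, 0.77 for *SRX1* and 0.68 for *PHM8*. *SET6* was below the background level in EG103 in both conditions, so its value is not an exact difference. *PMA1* (0.81) and *MSN4* (0.72) were not called without aspirin.

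Among the mating type markers and marker loci, the interaction was -1.17 for *SAG1*, -1.05 for *AGA2*, -1.01 for *MFA2*, -0.61 for *MFA1* and -0.63 for *LEU2*.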

How the results depend on the processing

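The number of probe sets called without aspirin was 1219 and lay between 1193 and 1290 when arrays or replicate numbers were left out. The ranges were 1220 to 1300 with aspirin (1267 in the main setting) and 585 to 726 for the interaction (671). Without the 25% of probe sets of lowest level, which leaves fewer to be called, the 3 counts were 760, 843 and 404. At a fold of at least 2 they were 387, 448 and 211, and with no fold threshold 3868, 3926 and 1923. Centring on the ribosomal protein probe sets, which sets their strain difference to about 0, shifted the median of all tested probe sets to -0.74 and gave 3736 calls without aspirin and 3734 with it, of which 112 and 121 were higher. Values as deposited gave 1419 calls without aspirin, and the share that was higher fell from 61.9% to 30.0%. With aspirin it fell from 54.1% to 28.0%. The methods' t-test called 1198 probe sets without adjustment and 1163 after it.

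Whether the replicate numbers pair the arrays is not known. With the replicate number as a block, 1220, 1266 and 672 probe sets were called.

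Over all refits of named genes, 2383 values kept their direction and their side of the threshold, 40 lost the call, 27 gained it and 20 changed sign. As deposited, the sign turned for *YAP1* (-0.12), *MSN4* (-0.0467), *CIT2* (-0.12) and *SFC1* (-0.0872), and after quantile normalization for *CIT2* (-0.13) and *SFC1* (-0.0777). Centred on ribosomal proteins, it turned for *YAP1* (-0.67), *CIT2* (-0.66), *SFC1* (-0.63), *MSN4* (-0.59), *ACS2* (-0.45), *ACS1* (-0.40), *SOD1* (-0.40), *ERG11* (-0.30), *SAG1* (-0.19), *AGA2* (-0.19), *ADH2* (-0.12), *MTM1* (-0.12), *HXT4* (-0.0579) and *HXT5* (-0.0348).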
